A study of Mus musculus with 9 samples.

Results

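Neutrophils are the short-lived phagocytes that enter an injured liver from the blood, and in alcohol-associated liver disease their number in the tissue is a hallmark of the inflamed stage. Their cytoplasm is filled with the calprotectin subunits S100a8 and S100a9, and they carry the receptor for granulocyte colony-stimulating factor, Csf3r, and the decoy receptor for interleukin 1, Il1r2. They are drawn in by the chemokines Cxcl1 and Cxcl2, both ligands of the neutrophil receptor Cxcr2, and by the cytokine interleukin 1 beta, Il1b, which macrophages and neutrophils make. Lcn2, a protein that withholds bacterial siderophores, is stored in neutrophil granules but is also made in quantity by hepatocytes during an acute phase response. Cxcl1 too is made by hepatocytes as well as by other liver cells. A transcript level in whole liver therefore cannot be assigned to a cell type from its own value.

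The 9 genes described here were taken by symbol, 6 as transcripts of neutrophils (S100a8, S100a9, Retnlg, Csf3r, Il1r2 and, shared with hepatocytes, Lcn2) and 3 as recruitment signals (Cxcl1, shared with hepatocytes, Cxcl2 and Il1b). All 9 were found among the 17046 genes listed in either of the 2 deposited tables. They were measured by RNA sequencing of liver in 9 libraries, 3 in each of 3 groups. All mice were wild type and had received, by tail vein, a virus of the AAV8 serotype whose TBG promoter restricts the insert to hepatocytes. In the first group it carried Mettl3, the catalytic subunit of the enzyme that methylates adenosine in messenger RNA, and the mice were ethanol-fed. In the second it carried the MCS control insert and the mice were ethanol-fed. In the third it carried the control insert and the mice were pair-fed. Diets with or without ethanol began 3 weeks after the virus and lasted 10 days, and ended with a single binge of ethanol or, in the pair-fed mice, maltose. The sample titles name Mettl3 overexpression or wild type and no virus, and sex and age are not given in the sources used here. Mice that received no virus, and Mettl3-virus mice without ethanol, are not among these groups.

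The libraries held 34656480 to 38159563 reads over the listed genes. Levels are given as FPKM, reads scaled to transcript length and library total. Mettl3 was at 25.0 to 38.5 FPKM in the Mettl3-virus ethanol-fed livers, 3.78 to 5.44 FPKM in the control-virus ethanol-fed livers and 3.10 to 3.97 FPKM in the pair-fed livers, as the titles state. The summed level of 9 hepatocyte markers ran from 48001 to 73026 FPKM over all 9 libraries. Control-virus ethanol-fed liver 1 stands apart from the other ethanol-fed livers in most of the values below. For the tested genes, the comparisons of its group are given with and without it, and some list counts without it are in the closing section. The fit of all 9 libraries, the mean ratios and the correlations include it. The labels number the livers within a group but name no animals, so the p-values measure the spread between these libraries.

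The start regions of the recruitment genes Cxcl1 and Cxcl2 and of Lcn2 are shown because Lcn2 and Cxcl1 had the largest log2 fold changes against pair-fed livers among the 7 genes tested, on the scale described below. Cxcl1 and Cxcl2 are also neighbours, at 90891245 to 90893121 and 90903899 to 90905938 on chromosome 5. Each sequence is the 250 bases before the RefSeq start of the gene on build GRCm38.p6, read 5′ to 3′ on the gene's strand. Capitals mark matches to the NF-kB consensus, searched on both strands.
Cxcl1, neutrophil chemokine, chr5:90890995-90891244, plus strand: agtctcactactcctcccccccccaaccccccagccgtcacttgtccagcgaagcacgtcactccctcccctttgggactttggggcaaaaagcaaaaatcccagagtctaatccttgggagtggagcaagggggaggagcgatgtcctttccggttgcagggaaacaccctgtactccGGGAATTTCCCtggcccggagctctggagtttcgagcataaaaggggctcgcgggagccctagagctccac
Cxcl2, neutrophil chemokine, chr5:90903649-90903898, plus strand: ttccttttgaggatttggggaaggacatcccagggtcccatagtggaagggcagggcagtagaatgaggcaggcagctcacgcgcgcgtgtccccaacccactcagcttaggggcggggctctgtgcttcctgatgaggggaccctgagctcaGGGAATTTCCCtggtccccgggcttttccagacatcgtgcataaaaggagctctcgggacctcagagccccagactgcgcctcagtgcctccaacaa
Lcn2, lipocalin 2, chr2:32387740-32387989, minus strand: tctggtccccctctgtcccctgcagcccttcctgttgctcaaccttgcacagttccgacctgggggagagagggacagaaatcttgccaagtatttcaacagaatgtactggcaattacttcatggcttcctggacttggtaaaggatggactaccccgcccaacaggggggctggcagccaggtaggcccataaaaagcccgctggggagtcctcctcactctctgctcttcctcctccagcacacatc

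The same 11 bases, GGGAATTTCCC, stood at -71 to -61 from the start of Cxcl1 and at -97 to -87 from the start of Cxcl2, where the consensus matched on both strands with the 2 matches overlapping. The Lcn2 window held no match. Among the other 6 genes, Csf3r held 1 match, and the windows of S100a8, S100a9, Retnlg, Il1r2 and Il1b held none. The windows of Csf3r and Il1r2 lay inside the RefSeq span of the gene, and that of Il1b overlapped its 5′ end, so these do not precede the outermost start. Over 32851 mouse start regions of the same length, 7.25% held at least 1 match. A match describes the letters of the window and not a site that was bound in these livers. S100a8 and S100a9 are also neighbours, at 90669071 to 90670034 and 90692630 to 90695721 on chromosome 3.

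The neutrophil transcripts S100a8 and S100a9 were several times higher in ethanol-fed than in pair-fed livers, apart from one ethanol-fed liver. S100a8 was at 24.4, 27.6 and 14.0 FPKM in the Mettl3-virus ethanol-fed livers 1, 2 and 3, at 2.94, 21.2 and 23.0 FPKM in the control-virus ethanol-fed livers and at 1.02, 2.07 and 3.29 FPKM in the pair-fed livers. All 3 Mettl3-virus livers lay above every pair-fed liver, whereas control-virus ethanol-fed liver 1 lay within the pair-fed range. S100a9 was at 43.9, 65.2 and 31.4 FPKM in the Mettl3-virus ethanol-fed livers, 4.52, 38.4 and 42.0 FPKM in the control-virus ethanol-fed livers and 5.14, 3.61 and 5.59 FPKM in the pair-fed livers. Again the ethanol-fed liver 1 was the only ethanol-fed liver inside the pair-fed range. The means of S100a9 were 46.8 ± 17.1, 28.3 ± 20.7 and 4.78 ± 1.03 FPKM in those 3 groups (SD, n = 3 each).

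The other neutrophil transcripts were low. Retnlg, a resistin-like secreted protein of mouse neutrophils, was at 4.57, 9.52 and 1.55 FPKM in the Mettl3-virus ethanol-fed livers, 0.902, 4.68 and 5.48 FPKM in the control-virus ethanol-fed livers and 0.307, 0.489 and 1.41 FPKM in the pair-fed livers. Pair-fed liver 3 lay above control-virus ethanol-fed liver 1 and just below Mettl3-virus liver 3. Csf3r was at 2.23, 1.54 and 1.49 FPKM in the Mettl3-virus ethanol-fed livers, 0.716, 1.84 and 1.76 FPKM in the control-virus ethanol-fed livers and 0.955, 1.02 and 1.01 FPKM in the pair-fed livers. For this receptor, control-virus ethanol-fed liver 1 was the lowest of all 9 livers.

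Il1r2 was at the edge of detection, with 58, 54 and 7 reads in the Mettl3-virus ethanol-fed livers, 7, 23 and 56 reads in the control-virus ethanol-fed livers and 2, 1 and 1 reads in the pair-fed livers. Every ethanol-fed liver thus had more reads than every pair-fed liver. Per total reads, the summed Il1r2 reads were 22.0 times as high in control-virus ethanol-fed as in pair-fed livers (exact 95% interval 8.29 to 82.6). The interval covers counting error only and not the spread between livers.

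**Figure D1:**
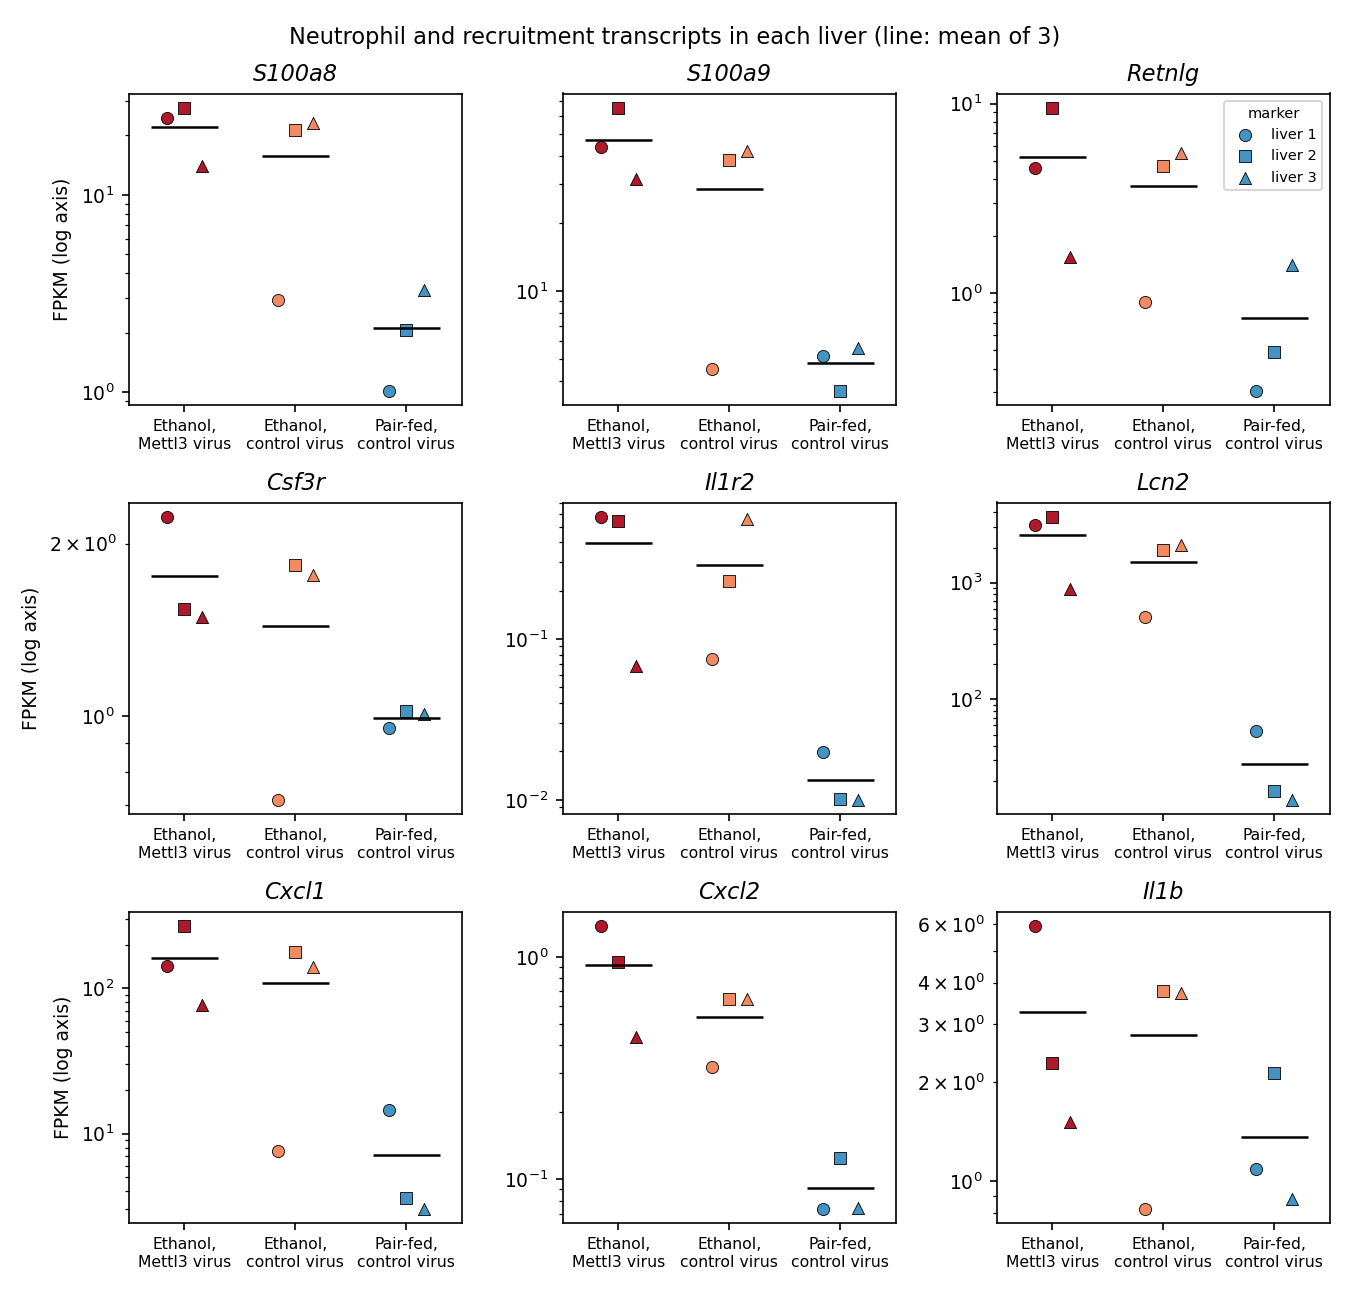
FPKM on a log axis of each of the 9 genes in each liver, with groups along the x axis (Mettl3-virus ethanol-fed, control-virus ethanol-fed, pair-fed), the marker giving the liver number and the line the mean of 3. Control-virus ethanol-fed liver 1 (circle, middle group) lies within the pair-fed range for S100a8, S100a9, Retnlg and Cxcl1, below it for Csf3r and Il1b and above it for Lcn2, Il1r2 and Cxcl2.

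Lcn2 was by far the most abundant of the 9 transcripts under ethanol. It was at 3125, 3681 and 882 FPKM in the Mettl3-virus ethanol-fed livers, 506, 1925 and 2118 FPKM in the control-virus ethanol-fed livers and 53.7, 16.3 and 13.9 FPKM in the pair-fed livers. The ethanol-fed groups did not overlap with the pair-fed group, and control-virus ethanol-fed liver 1 was 9.42 times above the highest pair-fed liver. Lcn2 alone took 0.267%, 0.314% and 0.0752% of all reads in the Mettl3-virus ethanol-fed livers, 0.0432%, 0.164% and 0.181% in the control-virus ethanol-fed livers and at most 0.00458% in a pair-fed liver. The ratio of mean Lcn2 level between control-virus ethanol-fed and pair-fed livers was 54.2.

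Cxcl1 was at 142, 271 and 76.9 FPKM in the Mettl3-virus ethanol-fed livers, 7.55, 178 and 140 FPKM in the control-virus ethanol-fed livers and 14.6, 3.60 and 3.04 FPKM in the pair-fed livers. Control-virus ethanol-fed liver 1 lay between pair-fed liver 1 and pair-fed liver 2, and the other 5 ethanol-fed livers were all at 76.9 FPKM or more. Its neighbour Cxcl2 reached at most 1.38 FPKM in any liver, with 56, 38 and 18 reads in the Mettl3-virus ethanol-fed livers, 12, 26 and 26 reads in the control-virus ethanol-fed livers and 3, 5 and 3 reads in the pair-fed livers. These groups of low values did not overlap between ethanol and pair feeding. Per total reads, the summed Cxcl2 reads were 5.95 times as high in control-virus ethanol-fed as in pair-fed livers (exact 95% interval 3.11 to 12.5).

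Il1b overlapped between the groups in both comparisons with pair-fed livers. It was at 5.95, 2.28 and 1.51 FPKM in the Mettl3-virus ethanol-fed livers, 0.825, 3.77 and 3.73 FPKM in the control-virus ethanol-fed livers and 1.09, 2.12 and 0.882 FPKM in the pair-fed livers. Pair-fed liver 2 lay above Mettl3-virus liver 3, and control-virus ethanol-fed liver 1 was the lowest of all. For all 9 genes the mean was highest in the Mettl3-virus ethanol-fed group and lowest in the pair-fed group. The share of all genes with that order was not counted. For S100a8, Csf3r and Il1b the order rested on control-virus ethanol-fed liver 1. The mean of livers 2 and 3 of that group was 22.1, 1.80 and 3.75 FPKM, against 22.0, 1.75 and 3.25 FPKM in the Mettl3-virus group. For the rest of the 9 it stayed below the Mettl3-virus mean. For none of the 9 did the Mettl3-virus ethanol-fed livers all lie above the control-virus ethanol-fed livers. Such a separation held for 4.9% of the genes listed for these groups.

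In control-virus mice, ethanol feeding was set against pair feeding with limma's moderated test on log2(FPKM + 1), fitted to the 6 livers and adjusted by the Benjamini-Hochberg method over 10064 genes. Genes needed an FPKM of at least 1 in at least 3 of the livers, which left out Il1r2 and Cxcl2. Retnlg passed with 2 ethanol-fed livers and 1 pair-fed liver above that level, so its passing depended on the ethanol-fed group. Of the 7 genes tested, Lcn2 and S100a8 were called higher and none lower at an adjusted p under 0.05, where 10% of all tested genes were called higher and 26% lower. Lcn2 rose by a log2 fold change of 5.72 (SE 0.66, adjusted p 0.00181), and S100a8 rose by 2.10 (SE 0.67, adjusted p 0.0458). Lcn2 ranked 3 among all tested genes by fold change and Cxcl1 ranked 13.

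Cxcl1 had a log2 fold change of 3.18 with an SE of 1.21, and its adjusted p of 0.0842 missed the threshold. S100a9 had 1.88 (SE 0.73, adjusted p 0.0801) and Retnlg 1.30 (SE 0.47, adjusted p 0.0643), and neither was called. Csf3r had 0.25 (95% interval -0.19 to 0.70) and Il1b 0.58 (95% interval -0.31 to 1.48). In 3 of the 9 genes, Lcn2, Il1r2 and Cxcl2, every ethanol-fed liver was above every pair-fed liver, which held for 13% of all listed genes.

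Without control-virus ethanol-fed liver 1, all 7 tested genes were called higher, where 11.1% of all tested genes were called higher and 36.9% lower. The log2 fold changes of the neutrophil transcripts were then 2.95 for S100a8, 2.85 for S100a9, 1.86 for Retnlg and 0.49 for Csf3r. Those of the others were 6.39 for Lcn2, 4.59 for Cxcl1 and 1.04 for Il1b. Without any single one of the other 5 livers, Lcn2 alone of the genes then tested was called, and the adjusted p of S100a8 lay between 0.0841 and 0.151. In limma-voom, a fit to the reads behind the FPKM, Cxcl2 could be tested and rose by 2.39 (adjusted p 0.0135), where 8.08% of genes were called higher. Cxcl2 was under the required 10 reads in every pair-fed liver, so it entered that fit through the ethanol-fed group alone. S100a8 was not called in that fit (2.58, adjusted p 0.134), and Il1r2 had too few reads for it. Il1r2 had 0.33 (adjusted p 0.103) in limma without the filter on low values. In the authors' deposited table, 4478 genes or 26.6% had a q under 0.05 in this comparison. That table gave Lcn2 a log2 fold change of 6.00 (q = 3.86e-11), S100a9 2.81 (q = 0.00958), Il1r2 4.69 (q = 9.88e-05) and Cxcl1 4.19 (q = 0.00483). S100a8, Retnlg and Cxcl2 were also under that q in the authors' deposited table, and Csf3r (q = 0.104) and Il1b (q = 0.0563) were not.

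**Figure D2:**
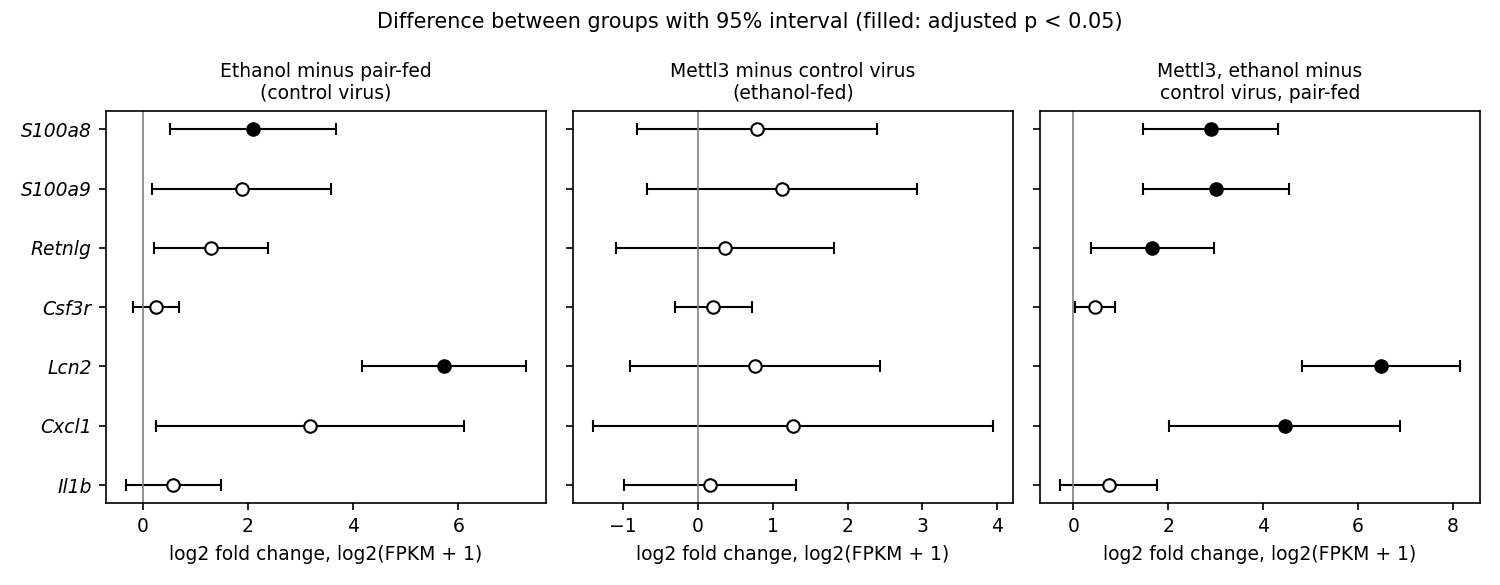
Log2 fold change on the log2(FPKM + 1) scale of the 7 tested genes in each of the 3 comparisons, with 95% intervals and filled points where the adjusted p is under 0.05. Filled points are Lcn2 and S100a8 on the left, none in the middle, and S100a8, S100a9, Retnlg, Lcn2 and Cxcl1 on the right.

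Under ethanol, the Mettl3 virus was set against the control virus in the same way, over 9706 genes. None of the 7 tested genes was called in limma, where 1 gene in all, Mettl3 itself, was called (0.0103% of those tested, and 723 genes at an unadjusted p under 0.05). None of the 7 had an unadjusted p under 0.05. Limma-voom called none of the 9, and 0.00729% of genes, with log2 fold changes of 0.67 for Cxcl2 (adjusted p 0.735) and 0.34 for Il1r2 (adjusted p 0.931). The log2 fold changes were positive, from 0.16 for Il1b (95% interval -0.99 to 1.31) to 1.27 for Cxcl1 (95% interval -1.40 to 3.94). Lcn2 had 0.77 (95% interval -0.91 to 2.44), S100a8 0.79 (95% interval -0.81 to 2.40) and S100a9 1.12 (95% interval -0.69 to 2.93). These intervals include differences of several fold in the positive direction. Adjusted p-values of the 7 genes ran from 0.675 to 0.925.

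For 5 of the 7 genes the sign depended on a single liver. Without control-virus ethanol-fed liver 1, the log2 fold change was -0.056 for S100a8, -0.19 for Retnlg, -0.034 for Csf3r, -0.14 for Cxcl1 and -0.30 for Il1b. Lcn2 and S100a9 then had 0.10 and 0.16. In the authors' deposited table of this comparison, 0.613% of genes had a q under 0.05 and none of the 9 did.

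Mettl3-virus ethanol-fed livers were also set against pair-fed livers, from which they differ in both virus and diet, in a fit of all 9 livers over 10229 genes. Of the 7 genes tested, 5 were called higher and none lower, where 13.9% of all tested genes were called higher and 34.9% lower. Lcn2 rose by 6.49 (SE 0.73, adjusted p 0.000617), Cxcl1 by 4.45 (SE 1.08, adjusted p 0.0093) and S100a9 by 3.00 (SE 0.68, adjusted p 0.00708). S100a8 rose by 2.89 (SE 0.63, adjusted p 0.00602) and Retnlg by 1.66 (SE 0.57, adjusted p 0.0379). Retnlg was at 1 FPKM or more in 3 Mettl3-virus livers and 1 pair-fed liver, so its passing of the filter again depended on ethanol-fed livers. Csf3r had 0.45 (adjusted p 0.0734) and Il1b 0.74 (adjusted p 0.197). In 8 of the 9 genes, all but Il1b, every Mettl3-virus liver was above every pair-fed liver, which held for 15.1% of genes listed in both tables. This comparison shares the pair-fed livers with the one under the control virus, so their similarity is not independent.

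Calls of Lcn2, S100a8, S100a9 and Cxcl1 held without any single one of the 6 livers compared, with adjusted p-values up to 0.0388, whereas Retnlg was called without 1 of the 6 only (Mettl3-virus liver 3). With FPKM rescaled by median ratios, Csf3r was called as well (0.61, adjusted p 0.0429). In limma-voom, Cxcl2 rose by 3.06 (adjusted p 0.00568) and Il1r2 by 3.99 (adjusted p 0.0356), where 10.9% of genes were called higher. Both were under the required 10 reads in every pair-fed liver, so they entered that fit through ethanol-fed livers alone. Retnlg was not called in that fit (adjusted p 0.077), and Il1r2 was not called in limma without the filter on low values (0.44, adjusted p 0.0669).

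Ratios within a library do not depend on how libraries are scaled to each other, and were used to set Lcn2 and Cxcl1 beside the neutrophil transcripts. The sum of S100a8 and S100a9 was 68.3, 92.9 and 45.4 FPKM in the Mettl3-virus ethanol-fed livers, 7.46, 59.6 and 64.9 FPKM in the control-virus ethanol-fed livers and 6.16, 5.68 and 8.88 FPKM in the pair-fed livers. Lcn2 per unit of that sum was 45.8, 39.6 and 19.4 in the Mettl3-virus ethanol-fed livers, 67.8, 32.3 and 32.6 in the control-virus ethanol-fed livers and 8.72, 2.87 and 1.56 in the pair-fed livers. Both ethanol-fed groups lay wholly above the pair-fed group. The mean ratio was 10.1 times as high in control-virus ethanol-fed as in pair-fed livers and 7.97 times as high in Mettl3-virus ethanol-fed as in pair-fed livers, so Lcn2 differed by more than S100a8 and S100a9 did.

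In control-virus ethanol-fed liver 1 the genes stood at different distances from the pair-fed livers. Its S100a8 plus S100a9 level was 1.08 times the pair-fed mean and its Cxcl1 level 1.07 times. Its Lcn2 level was 18.1 times the pair-fed mean. The sparse transcripts Il1r2 and Cxcl2, on 7 and 12 reads, were 5.65 and 3.51 times the pair-fed mean. The hepatocyte acute phase transcripts Saa1, Serpina3n and Orm1, a serum amyloid, a secreted protease inhibitor and an acid glycoprotein, were 31.8, 4.54 and 2.93 times the pair-fed mean in that liver. Other ethanol-fed control-virus livers exceeded liver 1 by 4.00 times for Lcn2, 8.34 times for S100a8 plus S100a9 and 21.1 times for Cxcl1, comparing the mean of livers 2 and 3 with it.

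Cxcl1 per unit of S100a8 plus S100a9 was 2.08, 2.91 and 1.69 in the Mettl3-virus ethanol-fed livers, 1.01, 2.99 and 2.16 in the control-virus ethanol-fed livers and 2.37, 0.633 and 0.342 in the pair-fed livers. Here the groups overlapped, since pair-fed liver 1 had the third highest ratio of the 9. Pair-fed liver 1 was also the highest pair-fed liver for Lcn2 and Cxcl1 levels. Retnlg per unit of the same sum was 0.0668, 0.103 and 0.0342 in the Mettl3-virus ethanol-fed livers, 0.121, 0.0785 and 0.0844 in the control-virus ethanol-fed livers and 0.0498, 0.0861 and 0.159 in the pair-fed livers. The mean ratio of Retnlg was 0.961 times that of pair-fed livers in control-virus ethanol-fed livers.

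The ratio of Csf3r had the opposite order to that of Lcn2. Csf3r per unit of S100a8 plus S100a9 was 0.0326, 0.0166 and 0.0329 in the Mettl3-virus ethanol-fed livers, 0.0960, 0.0308 and 0.0272 in the control-virus ethanol-fed livers and 0.155, 0.180 and 0.114 in the pair-fed livers, with no overlap between ethanol and pair feeding. Il1b per unit of the sum was 0.0871, 0.0246 and 0.0333 in the Mettl3-virus ethanol-fed livers, 0.111, 0.0632 and 0.0574 in the control-virus ethanol-fed livers and 0.177, 0.373 and 0.0994 in the pair-fed livers. Its Mettl3-virus values all lay below the pair-fed values, and the control-virus ethanol-fed and pair-fed groups overlapped. S100a9 per S100a8 lay between 1.53 and 2.36 in 8 livers. The ratio of 5.04 in pair-fed liver 1 rested on 101 reads of S100a9 and 15 of S100a8. Whether a ratio reflects the number of neutrophils, their content of a transcript or its expression in other cells was not tested, and in bulk tissue fewer cells of a type and less RNA per cell cannot be told apart.

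**Figure D3:**
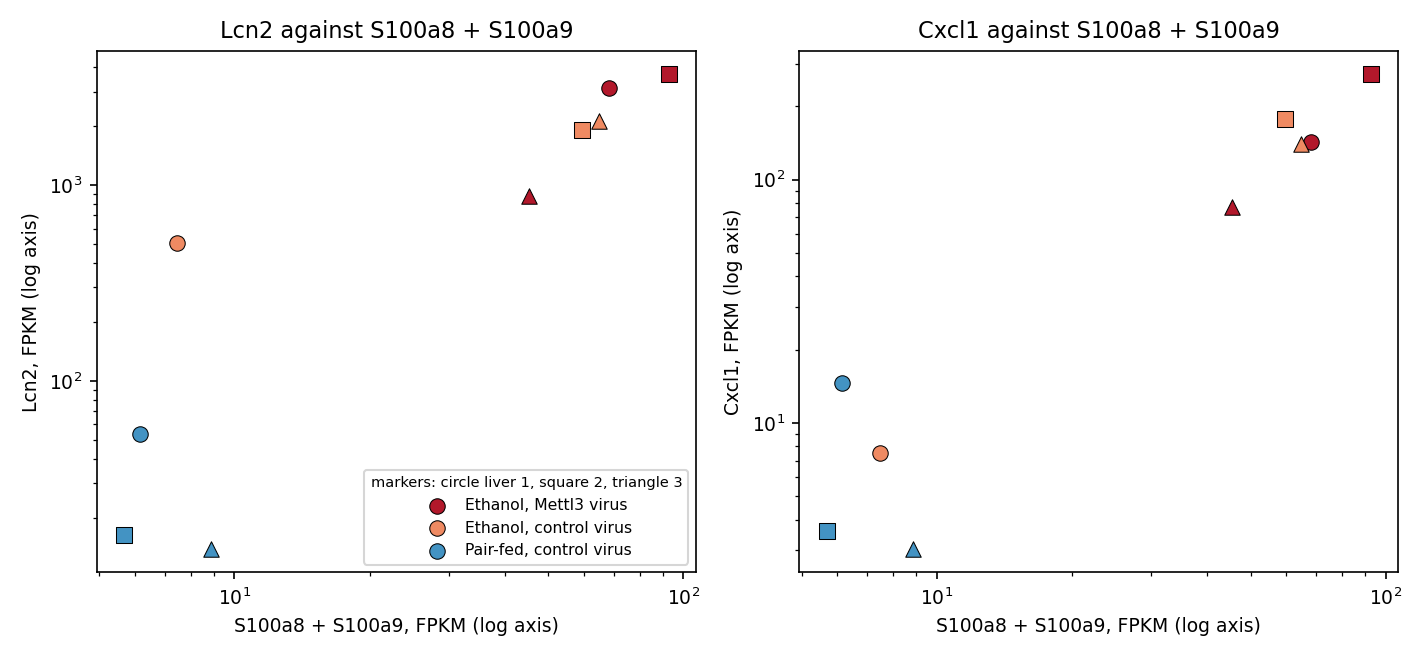
Lcn2 (left) and Cxcl1 (right) against the sum of S100a8 and S100a9 in each of the 9 livers, both axes in FPKM on a log scale, with groups by colour and liver numbers by marker. Control-virus ethanol-fed liver 1 (7.46 FPKM on the x axis) has 506 FPKM of Lcn2, above the pair-fed livers at 13.9 to 53.7, and 7.55 FPKM of Cxcl1, within theirs at 3.04 to 14.6.

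The 22 hepatocyte acute phase genes were measured beside Lcn2. In control-virus mice, 18 of the 22 were called higher under ethanol and none lower, where 10% and 26% of all tested genes were. The median log2 fold change of the 22 was 1.47, against -0.14 over all tested genes. Hamp had -1.64 and was not called (adjusted p 0.102). Saa1 rose by 6.64, Saa2 by 7.12, Orm2 by 4.42 and Orm3 by 3.34, where Saa1 with Saa2 and Orm2 with Orm3 are near copies whose reads may be shared. Lcn2 per Saa1 was 0.324, 0.344 and 0.148 in the Mettl3-virus ethanol-fed livers, 0.372, 0.240 and 0.311 in the control-virus ethanol-fed livers and 0.894, 0.451 and 0.430 in the pair-fed livers. Saa1 therefore differed by more than Lcn2 did. In Mettl3-virus ethanol-fed against pair-fed livers 19 of the 22 were called higher and none lower, where 13.9% and 34.9% of all tested genes were. The median of the 22 was then 2.10. Between the viruses under ethanol none of the 22 was called, and 2 had an unadjusted p under 0.05.

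Of 32 other neutrophil genes, 24 were in the tables, and most were too low to test. Camp, Ltf, Elane, Mpo and Ctsg, which encode granule proteins, were not analysed here. In control-virus mice, 3 of the 8 tested were called higher under ethanol and none lower, where 10% and 26% of all tested genes were. Those 3 were Hcar2, a hydroxycarboxylic acid receptor (1.65), Hdc, the enzyme that makes histamine (1.31), and Chil1, a secreted chitinase-like protein (1.25), and all 3 are also expressed by cells other than neutrophils. Hcar2 and Chil1 were under 1 FPKM in every pair-fed liver and so entered the test through the ethanol-fed group alone. Among the 6 genes with a pair-fed liver at 1 FPKM or more, 1 was called higher. Fpr1, a receptor for formylated peptides and the most abundant gene of the list, had -0.06 and was not called. In Mettl3-virus ethanol-fed against pair-fed livers, 6 of 12 were called higher and 1 lower, where 13.9% and 34.9% of all tested genes were. Of those 6, 5 were under 1 FPKM in every pair-fed liver and entered the test through ethanol-fed livers alone, so the count says little about the list, and 1 of the 6 genes with a pair-fed liver at 1 FPKM or more was called higher (Hdc). Hcar2 (2.04), Hdc (1.34) and the lectin receptor Clec4d (0.82) rose and the myeloid transcription factor Cebpe fell by 0.75.

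The other 3 that rose there were the chemokine receptor Cxcr2 (0.74), the collagenase Mmp8 (1.05) and the integrin chain Itgam (0.65), named here after their values were seen. Of the 12 tested there, 5 were not called, with 0.83 for Chil1, 0.56 for Prtn3, 0.24 for Fpr2, -0.02 for Mxd1 and -0.10 for Fpr1. Cxcr2, the receptor of Cxcl1 and Cxcl2, was at 1.05, 1.11 and 0.520 FPKM in the Mettl3-virus ethanol-fed livers, 0.185, 0.834 and 1.42 FPKM in the control-virus ethanol-fed livers and 0.0598, 0.0867 and 0.232 FPKM in the pair-fed livers. Mmp8 had 163, 153 and 34 reads in the Mettl3-virus ethanol-fed livers, 3, 91 and 162 reads in the control-virus ethanol-fed livers and 5, 4 and 3 reads in the pair-fed livers. The granule gene Ngp was too low to test and is also named after its values were seen. It had 10, 30 and 8 reads in the Mettl3-virus ethanol-fed livers, 0, 16 and 5 reads in the control-virus ethanol-fed livers and none in the pair-fed livers. Other genes of the list that were too low to test are not given by group here, so Ngp does not stand for them. Over all 24 genes, control-virus ethanol-fed liver 1 was the lowest of the 6 ethanol-fed livers for 14, among them Cxcr2, Mmp8 and Ngp, and the highest for 3 (Cebpe, Cxcr1 and Cd177).

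Of 34 other recruitment genes, 16 were tested in control-virus mice, 3 were called higher and 3 lower under ethanol, where 10% and 26% of all tested genes were, and the median was 0.04. Nothing particular to the list is read from these counts. Il17ra, a receptor for interleukin 17, rose by 0.82, Icam1, an adhesion molecule that neutrophils bind, by 0.98 and Tnfaip3, an inhibitor of NF-kB signalling that was under 1 FPKM in every pair-fed liver, by 0.76. The chemokine Cxcl12 fell by 1.48, the NF-kB inhibitor Nfkbia fell by 0.67 and the protease Casp1, which matures Il1b, fell by 0.51. Under median-ratio scaling the call of Nfkbia was lost (-0.50, adjusted p 0.0652). Il1r1, the signalling receptor for Il1b, was at 63.3, 82.2 and 26.7 FPKM in the Mettl3-virus ethanol-fed livers, 7.72, 41.6 and 62.6 FPKM in the control-virus ethanol-fed livers and 13.1, 9.23 and 10.7 FPKM in the pair-fed livers. It was not called in control-virus mice (1.27, adjusted p 0.168), where ethanol-fed liver 1 was below the pair-fed range.

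In Mettl3-virus ethanol-fed against pair-fed livers, 6 of 17 other recruitment genes were called higher and 4 lower, where 13.9% and 34.9% of all tested genes were, and 2 of the 6 (C5ar1 and Tnfaip3) were under 1 FPKM in every pair-fed liver. Il17ra rose by 1.26, Icam1 by 1.27 and C5ar1, the receptor for complement C5a, by 0.62, while Cxcl12 fell by 1.09. Under median-ratio scaling, 7 of the 17 were called higher and 2 lower, where 2599 and 2169 of 10192 tested genes were. Between the viruses under ethanol, none of the 11 other neutrophil genes, 17 other recruitment genes or 4 monocyte markers tested was called.

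Of 4 tested monocyte markers none was called higher and 1 lower under ethanol in control-virus mice, where 10% and 26% of all tested genes were. That 1 was Lyz2, lysozyme, which fell by 0.75, while Fcgr1 had -0.51, Ms4a6c -0.24 and Plac8 -0.06. The summed level of the 12 monocyte markers was 47.7 to 80.5 FPKM in the Mettl3-virus ethanol-fed livers, 45.5 to 75.9 FPKM in the control-virus ethanol-fed livers and 90.7 to 110 FPKM in the pair-fed livers, and 7 of the 12 were under 1 FPKM in every liver. Of 12 markers of Kupffer cells, the resident macrophages, 9 were lower and 1 higher under ethanol in control-virus mice, where 26% of all tested genes were called lower. Of 8 endothelial cell markers, 5 were also called lower there and 1 higher (Lyve1, 1.90), and of 8 stellate cell markers 3 and 0. Under median-ratio scaling, 3 endothelial, 0 stellate and 8 Kupffer cell markers were called lower, and 2, 0 and 1 higher. Of all 10033 genes tested under that scaling, 1660 were called lower and 1795 higher. The summed level of the 12 Kupffer cell markers was 163 to 287 FPKM in the Mettl3-virus ethanol-fed livers, 186 to 275 FPKM in the control-virus ethanol-fed livers and 338 to 385 FPKM in the pair-fed livers. Neutrophils and macrophages both make Il1b, and the part of either in its level was not tested.

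**Figure D4:**
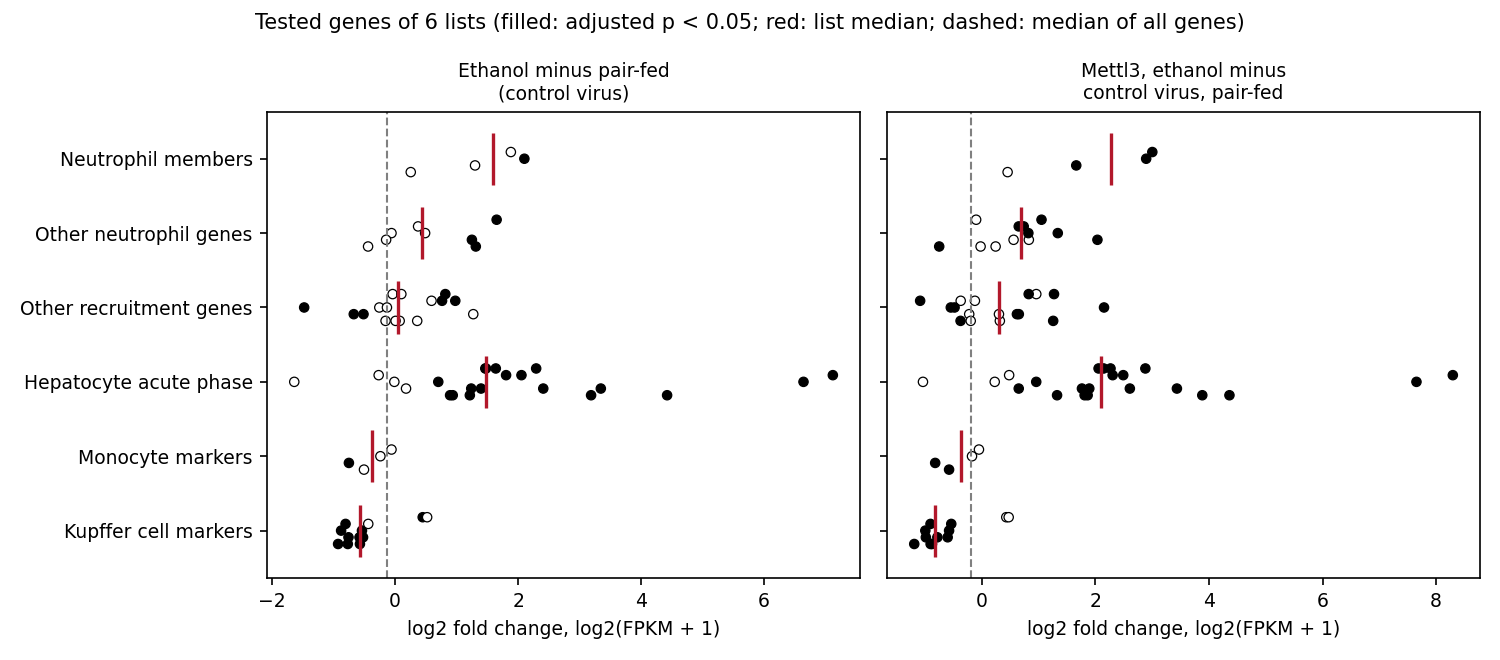
Log2 fold change on the log2(FPKM + 1) scale of each tested gene of 6 lists, for control-virus ethanol-fed minus pair-fed livers (left) and Mettl3-virus ethanol-fed minus pair-fed livers (right), with filled points at an adjusted p under 0.05, red lines at list medians and the dashed line at the median of all tested genes. The neutrophil members have the highest list medians, 1.59 and 2.28 over 4 tested genes, followed by the acute phase genes with 1.47 and 2.10. The single genes furthest to the right are acute phase genes. Kupffer cell markers lie to the left with medians of -0.58 and -0.83.

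The genes whose level followed each of 4 of the 9 genes most closely over the 9 livers were ranked by Pearson's r of log2(FPKM + 1) among 9487 genes, as a description. The livers share the group differences, and control-virus ethanol-fed liver 1 has a strong pull on these values. For Lcn2 the first 5 were Serpina3n, Prg4, Orm1, Saa1 and Eif1a, with r from 0.987 to 0.993, and 3 of them are on the acute phase list. For S100a9 they were Cpne8, Sdf2l1, Tifa, S100a8 and Tacc2 (0.973 to 0.979), with S100a8 in place 4. For Cxcl1 they were Slc39a14, Fgb, Creld2, Tacc2 and Hyou1 (0.978 to 0.988). For Il1b they were Cd38, Prr3, Zfp33b, Csf3r and Fcgr3 (0.906 to 0.952).

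After each group's mean was subtracted, so that the group differences were removed, Cxcl1 was closest to Fgg, Fgb, Saa1, Flot1 and Fga (0.984 to 0.995), of which all but Flot1 are acute phase genes and 3 are the fibrinogen chains. Lcn2 was then closest to Stap2, Snrpf, Magt1, Thpo and Sf3a3 (0.977 to 0.982) and S100a9 to Id2, Garem1, Eny2, Hamp and Map3k1 (0.963 to 0.986). In these deviations the r of Cxcl1 was 0.921 with S100a9 and 0.895 with Lcn2, that of Lcn2 with S100a8 was 0.549, and that of Il1b with Csf3r was 0.906.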

How the data were processed

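RNA sequencing of 9 mouse livers, 3 per group, was analysed from 2 deposited tables of 6 libraries each that share the control-virus ethanol-fed livers. Per the submitters' processing notes, fastp, HISAT2 and HTSeq were used on build mm10; versions, annotation and strand setting are not given in the sources used here. The authors deposited FPKM for each library, beside signal columns with group means of size-factor-scaled reads. The linear fold (ratio), log2 fold change, p-value and q-value columns are from the authors' DESeq2 run, per the file headers.

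The shared columns differed by a relative 1.08e-06 at most, so the tables were joined by gene symbol and a gene missing from one was left out of the comparison that needs it. The members and gene lists were chosen with earlier results of these data known. The main test was limma 3.58.1 in R 4.3.3 (lmFit, eBayes with trend and robust) on log2(FPKM + 1). A gene entered when 3 or more of the fitted libraries had an FPKM of 1 or above. P-values were adjusted by the Benjamini-Hochberg method and called under 0.05; fold changes on this scale understate those of low genes. Python 3.11.15, numpy 2.4.6, pandas 2.3.3 and matplotlib 3.10.9 did the rest. Whole reads were recovered from the signal columns and FPKM for 100% of values within 0.05 reads, and gave the depths and the limma-voom fits, an alternative chosen after seeing the data (at least 10 reads in at least 3 libraries). The planned tests on counts were left out because FPKM is not a count. Of the gene lists, the text names up to 4 called genes of smallest p per list and comparison and the 3 most abundant per list at most; others are marked. Counts of called genes among the 9 by another scaling, filter, pseudocount, set of libraries, replicate block and with each library left out are in the closing section. The fits and the recovery of reads were tested on simulated data with known changes; with total scaling, a change of the most abundant gene shifted many other genes, and median-ratio scaling removed most of that shift. Intervals on reads and on ratios of reads are exact binomial.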

Additional observations from a re-analysis of the deposited data

How the results depend on the processing

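The number of the 7 tested genes called was 2 for control-virus ethanol-fed minus pair-fed livers, and it lay between 1 and 7 with each library left out. The highest number came without control-virus ethanol-fed liver 1. Between the viruses under ethanol it was 0 throughout, and for Mettl3-virus ethanol-fed minus pair-fed livers it was 5, and 4 to 5 with a library left out. Over all genes, calls in these 3 comparisons ranged with a library left out from 1538 to 4743 (main value 3625), from 0 to 2 (main value 1) and from 3342 to 5678 (main value 4996). Between the viruses, 0 genes were called without the filter on low values, 0 with the replicate block and 3 in a fit of all 9 libraries. The cause was not tested.

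Between the viruses, 7 log2 fold changes reversed with a library left out. Without control-virus ethanol-fed liver 1 they were -0.056 for S100a8, -0.19 for Retnlg, -0.034 for Csf3r, -0.14 for Cxcl1 and -0.30 for Il1b. Il1b was at -0.27 without Mettl3-virus liver 1 and Retnlg at -0.13 without Mettl3-virus liver 2. The highest values with a library left out were 1.25 for S100a8, 0.89 for Retnlg, 0.33 for Csf3r, 2.06 for Cxcl1 and 0.47 for Il1b. Lcn2 kept its direction and its calls against pair-fed livers under all 14 alternatives in each comparison. S100a8 was called in 6 of the 14 alternatives for control-virus ethanol-fed minus pair-fed livers, and its call was also lost without the filter on low values (adjusted p 0.0766). In control-virus mice without ethanol-fed liver 1, 2 of 6 other neutrophil genes tested were called higher and 1 lower. Of 15 other recruitment genes 4 were called higher and 4 lower, and of 22 acute phase genes 19 and 1. Of 12 Kupffer cell markers 1 was called higher and 9 lower, and of 4 monocyte markers 0 and 1. Of all genes tested then, 11.1% were called higher and 36.9% lower.

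Median-ratio scaling moved the median log2 fold change of all tested genes to 0.01 for control-virus ethanol-fed minus pair-fed livers and to 0.04 for Mettl3-virus ethanol-fed minus pair-fed livers, from -0.14 and -0.18. The calls then split into 1795 higher and 1660 lower, in place of 1009 and 2616, in the first of these, and into 2599 and 2169, in place of 1424 and 3572, in the second. Csf3r did not pass the filter on low values in the first of these under that scaling. The directions of the other tested genes did not change in any of the 3 comparisons, nor did those of the medians of the neutrophil, recruitment, acute phase and Kupffer lists, while that of the monocyte markers was 0.04 between the viruses under that scaling, against -0.03.

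Replicate numbers are shared by the groups but did not pair the livers, with correlations of same-numbered deviations from -0.41 to 0.40. With a pseudocount of 0.1, with a filter on mean FPKM and with no filter, 2, 0 and 5 of the tested genes were called in the 3 comparisons. With median-ratio scaling, and in limma-voom, 2, 0 and 6 were. In the first comparison the 2 called in these fits were Lcn2 and S100a8, except without the filter and in limma-voom. There they were Lcn2 and Cxcl2, of 9 and 8 genes tested. The adjusted p of Cxcl2 was 0.0159 in limma without the filter. Another set of libraries gave 3 and 0 in the first 2 comparisons (all 9 libraries) and 6 in the third (the 6 libraries compared). With the replicate block, 3, 0 and 5 of the tested genes were called in the 3 comparisons, and 2778, 0 and 4472 of all genes. Reads limited Il1r2 and Cxcl2, which had at most 5 reads in a pair-fed liver.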
